A study of Homo sapiens with 4 samples.

Results

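The genes described are 10 of the 23287 gene symbols measured in T47D cells: the RCAN genes RCAN1, RCAN2 and RCAN3, the catalytic subunits of calcineurin PPP3CA, PPP3CB and PPP3CC, and the NFAT genes NFATC1, NFATC2, NFATC3 and NFAT5. They were selected by name, as 3 families of 1 pathway, with their values in these libraries already known, so their changes are a description and carry no test. T47D cells are a line from a human breast carcinoma in which the progesterone receptor (PR) is abundant, and R5020 is a synthetic progestin that activates this receptor. RNA-seq compared 1 library of cells given 10 nM R5020 for 3 h with 1 library of cells given the vehicle, ethanol (EtOH), for 3 h. ChIP-seq mapped the PR in 1 library after 10 nM R5020 for 1 h, against input DNA. All cells were moved before treatment to medium with charcoal-stripped serum, which holds little steroid. The paper gives a longer time in this medium for the ChIP cells than for the RNA cells. Nothing else in the labels sets the conditions apart. As each condition is 1 library, no difference can be checked against replicates and p-values are not given.

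Calcineurin is a phosphatase switched on by calcium and calmodulin. It is built of a catalytic subunit, from a PPP3C gene, and a regulatory subunit that binds calcium. Active calcineurin removes phosphates from the cytoplasmic NFAT proteins, which then enter the nucleus and bind DNA at the core GGAAA, and it is the target of the immunosuppressants cyclosporin A and FK506. RCAN proteins bind the catalytic subunit and, at high levels, inhibit it. NFAT5 lacks the calcineurin docking site and responds to osmotic stress. In breast cancer cells NFAT proteins have been studied for their part in migration and invasion.

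Expression was given per RefSeq transcript as FPKM, the number of fragments scaled to transcript length and to library size, and summed per gene. Changes are log2((FPKM in R5020 + 1) / (FPKM in EtOH + 1)). A gene or transcript was retained if its FPKM reached 1 in either condition, and 1.5-fold was the threshold for calling it higher or lower. The deposited coverage corresponds to 35151493 reads in EtOH and 36203604 reads in R5020. The paper states more unique reads for both libraries, with EtOH the deeper. The read numbers given here are thus estimates from coverage and not the sequenced depth. Over the 11018 retained genes the median change was 0.0053 and the middle 95% lay between -0.75 and 1.19. The luminal markers PGR, ESR1, GATA3, EPCAM and KRT19 lay between 17.2 and 608 FPKM in EtOH and between 10.9 and 477 FPKM in R5020, so these defining markers of the labelled line were present. KRT8 and KRT18 were listed at 0 in EtOH, where KRT8 carries a failed status, and at 285 and 174 FPKM in R5020. PTPRC and CD3E, markers of leukocytes, were at 0.0230 FPKM or lower, and COL1A1 was at 5.12 and 3.31 FPKM with COL1A2 at 0. All transcripts of the 10 genes carried the status OK in both libraries. In bulk RNA, fewer cells with a transcript and less of it per cell cannot be told apart.

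Of the 10 genes, 9 were retained, all but RCAN2. RCAN1 and PPP3CC were at least 1.5-fold higher in R5020, none was 1.5-fold lower and 7 lay in between. Among all retained genes 7.67% reached 1.5-fold towards R5020 and 4.14% towards EtOH, and since the same contrast was known when the genes were selected, nothing is read from the count. The median change of the 9 genes was 0.04, with 5 above 0 and 4 below. RCAN1, an inhibitor, had the largest change of the 10 genes and the highest level of them in both conditions. The changes of the other 8 retained genes, the subunits of the phosphatase it acts on and the NFAT genes among them, lay within the middle 95% of all genes.

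**Figure D1:**
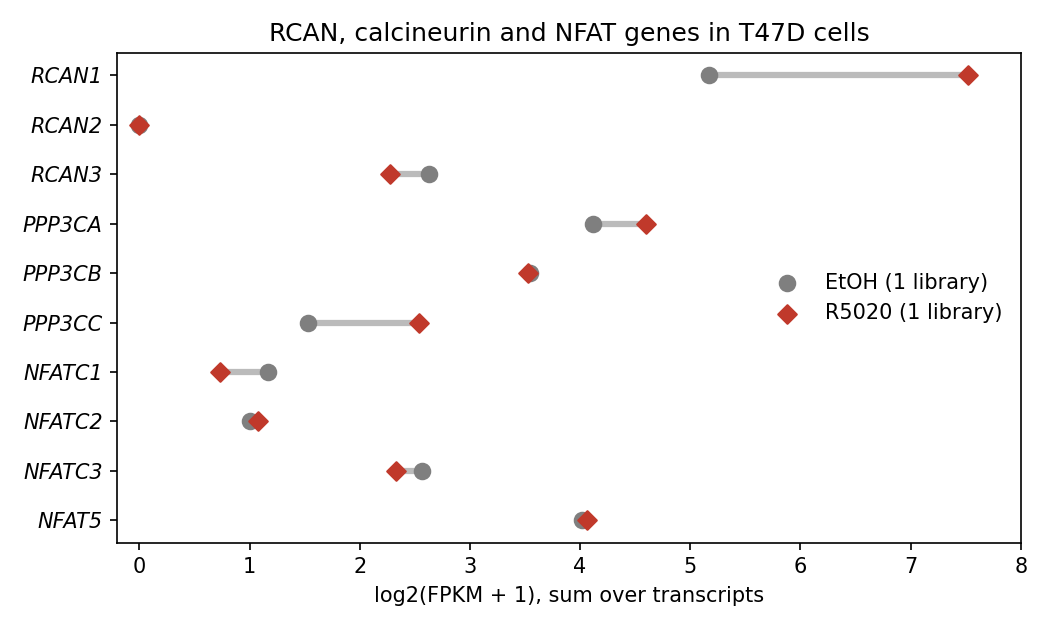
Level of each of the 10 genes, as log2(FPKM + 1) summed over transcripts, in EtOH (circles) and R5020 (diamonds), 1 library each, with a grey bar joining the values of a gene. RCAN1 stands at 34.9 and 183 FPKM, PPP3CC at 1.89 and 4.80 FPKM, and RCAN2 at 0 in both.

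RCAN1 (chr21:35888784-35987382, hg19, minus strand) codes for a small calcineurin inhibitor within the Down syndrome region of chromosome 21. It had 34.9 FPKM in EtOH and 183 FPKM in R5020, which is 5.23-fold higher and a change of 2.35. The change stood 59th from the top of the 11018 retained genes, at the 99.5th percentile. In level, the gene went from rank 689 in EtOH to rank 95 in R5020. The coverage behind these values corresponds to 8004 reads in EtOH and 40352 reads in R5020. Cufflinks gives each FPKM an interval for its estimate within a library, which leaves out differences between cultures. With the ends of these intervals set against each other the change of RCAN1 ran from 2.29 to 2.44. The 3 retained genes nearest to RCAN1 in change, among those with an FPKM of 1 or more in both conditions, were ATP10A, a phospholipid flippase subunit, FAM107B, and FKBP5, a co-chaperone of steroid receptors. ATP10A was at 1.12 and 9.90 FPKM, FAM107B at 11.5 and 63.3 FPKM and FKBP5 at 15.9 and 86.6 FPKM, with changes of 2.36, 2.37 and 2.38. This likeness rests on 1 difference between 2 libraries. For ATP10A, at 1.12 FPKM in EtOH, it also depends on the 1 added to each FPKM. Without that addition its ratio is larger than that of RCAN1.

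RCAN1 has 3 RefSeq transcripts with 3 starts, and they share their last exons but not their first. The long transcripts NM_004414 and NM_203417 begin at positions 35987382 and 35986745, at the far end of the gene. The short transcript NM_203418 begins at position 35899261, inside the gene. Background on this short form, often called RCAN1-4, is that NFAT itself can drive it from a group of NFAT sites upstream of its start, so that calcineurin can feed back on its own inhibitor. In these libraries NM_203418 held 100% of the RCAN1 FPKM in both conditions. Its interval was 33.8 to 36.5 FPKM in EtOH and 182 to 188 FPKM in R5020, so the intervals lay apart. NM_004414 and NM_203417 were listed at 0 in EtOH and in R5020, with upper bounds of at most 0.0173 FPKM. The whole difference in RCAN1 was thus given to the short transcript, and no change of the long transcripts can be computed from a listed 0. The paper, however, counts RCAN1 among the genes with more than a single variant expressed in vehicle-treated cells, without showing the values. For these genes it also reports that just a single variant changed with progestin, and here too a single RCAN1 transcript differed. The listed 0 of the long transcripts in EtOH differs from the first of these statements, and the reason was not tested.

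The 300 bases upstream of the starts show how the promoters of the short and a long transcript differ in letters. They are read from GRCh37, the assembly of hg19, on the minus strand and 5′ to 3′, with each GGAAA or its reverse complement TTTCC in capitals.

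NM_203418, chr21:35899262-35899561: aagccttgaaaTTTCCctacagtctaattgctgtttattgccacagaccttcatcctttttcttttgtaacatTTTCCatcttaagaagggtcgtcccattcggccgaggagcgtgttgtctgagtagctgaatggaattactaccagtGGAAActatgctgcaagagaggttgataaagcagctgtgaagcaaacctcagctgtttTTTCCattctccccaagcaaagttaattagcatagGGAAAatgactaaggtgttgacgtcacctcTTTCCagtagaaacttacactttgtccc

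NM_203417, chr21:35986746-35987045: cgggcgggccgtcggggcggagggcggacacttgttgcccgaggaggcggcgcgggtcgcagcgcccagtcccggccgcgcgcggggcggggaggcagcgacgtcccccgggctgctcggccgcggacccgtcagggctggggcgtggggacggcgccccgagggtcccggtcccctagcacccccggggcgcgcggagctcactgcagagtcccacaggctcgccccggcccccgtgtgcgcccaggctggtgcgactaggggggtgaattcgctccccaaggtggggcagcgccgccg

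The window of NM_203418 holds 6 copies of GGAAA, counted on both strands, and its GC content is 42.3%. Of 12131 such windows upstream of transcript starts, 0.198% hold 6 copies or more, 60.0% hold at least 1 and the median is 1. The windows of NM_203417 and NM_004414 hold none, at a GC content of 80.0% and 72.0%. The part of GC content in these counts was not tested. The window of NM_203418 also holds ACANNNTGT, the open core of a steroid receptor element, which 3.52% of all windows hold. Letters alone do not show that a factor binds there, and no NFAT binding was measured in these cells.

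RCAN2 (chr6:46188467-46459804, minus strand) codes for a paralogue known from brain and muscle. All 3 of its transcripts were listed at 0 in both conditions. RCAN3 (chr1:24828841-24863510, plus strand) codes for the third paralogue and was at 5.18 FPKM in EtOH and 3.85 FPKM in R5020. Its change of -0.35 stood at percentile 11.2 of retained genes, with 1282 and 917 reads behind it. The transcripts of RCAN3 differed in direction. NM_001251979 was at 1.58 FPKM in EtOH and 0.722 FPKM in R5020, and NM_001251982 at 1.01 FPKM and listed at 0, both lower with intervals apart. NM_001251980, which begins at the same start group as NM_001251982, was higher, at 1.67 and 2.45 FPKM, also with intervals apart. Summed over that start the level was 2.68 FPKM in EtOH and 2.45 FPKM in R5020, so the sum differed less than its parts. NM_013441 was at 0.920 and 0.675 FPKM with overlapping intervals, and the other 6 transcripts were at 0. Cufflinks divides reads of shared exons between such transcripts, and a shift between them is less certain than their sum. The antisense gene RCAN3AS, on the minus strand, was listed at 0 in both conditions. Of the summed FPKM of the RCAN genes RCAN1 held 87.1% in EtOH and 97.9% in R5020.

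**Figure D2:**
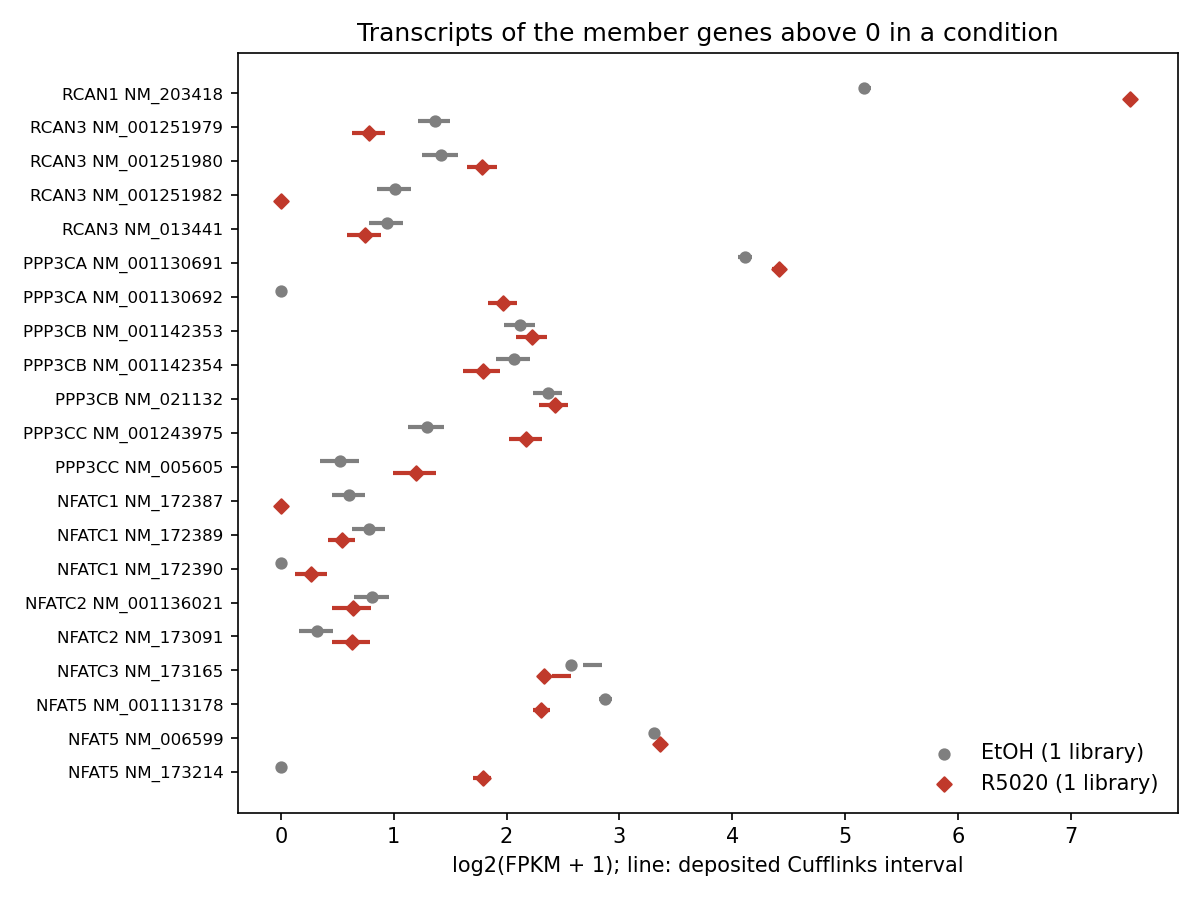
The 21 transcripts of the 10 genes with an FPKM above 0 in at least 1 condition, as log2(FPKM + 1) in EtOH (circles) and R5020 (diamonds), with lines for the deposited interval of each estimate. The RCAN1 transcript NM_203418 lies to the right of all others in both conditions, and the symbol of the NFATC3 transcript lies left of its own interval.

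The calcineurin genes were led by PPP3CA (chr4:101944587-102268628, minus strand), the alpha catalytic subunit, which is the main form in brain and many other tissues. PPP3CA was at 16.3 FPKM in EtOH and 23.2 FPKM in R5020, a change of 0.48 at percentile 90.3 that stays under 1.5-fold at a ratio of 1.42. NM_001130691 was at 16.3 FPKM in EtOH and 20.3 FPKM in R5020, and NM_001130692 was listed at 0 in EtOH and at 2.92 FPKM in R5020, which is 12.6% of the gene in R5020. The third transcript, NM_000944, was at 0 in both. The higher sum in R5020 was therefore made up of a transcript found in both conditions and another above 0 in R5020 alone, and all 3 begin at the same start. Cufflinks divides reads of shared exons between such transcripts, and the part of this division in the listed 0 was not tested.

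PPP3CB (chr10:75196563-75255782, minus strand), the beta catalytic subunit, was at 10.7 FPKM in EtOH and 10.5 FPKM in R5020, a change of -0.02. Its 3 transcripts lay between 2.46 and 4.37 FPKM, and for each the intervals of EtOH and R5020 overlapped. PPP3CB thus sat near the middle of all genes, at the 45.5th percentile of change.

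PPP3CC (chr8:22298483-22398657, plus strand) codes for the gamma catalytic subunit, known for its high level in testis. It was the lowest of the catalytic genes in both conditions, at 1.89 FPKM in EtOH and 4.80 FPKM in R5020. Its ratio was 2.53 and its change 1.003, at the 96.6th percentile and 375th from the top. The reads behind it numbered 411 in EtOH and 1012 in R5020, and the ends of the intervals gave a change from 0.58 to 1.42. Both transcripts above 0 were higher with intervals apart. NM_001243975 was at 1.45 FPKM in EtOH, with an interval of 1.18 to 1.73, and 3.50 FPKM in R5020, with an interval of 3.05 to 3.96. NM_005605 was at 0.439 and 1.29 FPKM. The transcripts kept nearly the same proportions, with NM_001243975 at 76.8% of the gene in EtOH and 73.1% in R5020.

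Summed, the catalytic genes were at 28.9 FPKM in EtOH and 38.5 FPKM in R5020. The share of PPP3CA in that sum was 56.4% in EtOH and 60.2% in R5020, that of PPP3CB 37.05% and 27.3%, and that of PPP3CC 6.55% and 12.5%. Most of the difference in the sum came from PPP3CA, with 6.89 FPKM of 9.60 FPKM. RCAN1 mRNA stood at 1.21 times the sum of the catalytic genes in EtOH and at 4.75 times in R5020. These are ratios of mRNA levels per length, and protein was not measured.

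NFAT5 (chr16:69599869-69738569, plus strand), the osmotic stress factor, had the highest level of the NFAT genes, at 15.2 FPKM in EtOH and 15.7 FPKM in R5020. Its change of 0.04 is the median of the 9 retained genes, and its long transcripts gave 19234 and 19159 reads. Within that sum the transcripts differed. NM_006599 was at 8.87 and 9.28 FPKM with overlapping intervals, NM_001113178 was lower at 6.32 and 3.96 FPKM, and NM_173214 was listed at 0 in EtOH and at 2.45 FPKM in R5020. The last 2 differed with intervals apart, in opposite directions and by similar amounts. They begin at the same start and have nearly the same length, at 13298 and 13309 bases, and the part of the division of reads between them in these values was not tested.

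NFATC3 (chr16:68119269-68263162, plus strand) was the highest of the NFAT genes regulated by calcineurin, at 4.94 FPKM in EtOH and 4.03 FPKM in R5020, a change of -0.24. All of it lay in NM_173165. Its FPKM lay below its own interval in both libraries, of 5.40 to 6.17 in EtOH and 4.28 to 4.93 in R5020, so its change is less certain than the others. NFATC3 overlaps ESRP2 on the minus strand, a splicing factor of epithelia, which was at 20.9 FPKM in EtOH and 14.6 FPKM in R5020. Whether the counting used the strand is not given in the sources used here, and the part of ESRP2 in the NFATC3 values was not tested.

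NFATC1 (chr18:77155772-77289323, plus strand), known from T cells, heart valves and osteoclasts, was at 1.25 FPKM in EtOH and 0.662 FPKM in R5020. Its change of -0.43 at the 7.60th percentile did not reach 1.5-fold with the pseudocount of 1 but did without a pseudocount, at -0.91, with 523 and 238 reads. NM_172387 was at 0.524 FPKM in EtOH and listed at 0 in R5020, and NM_172389 at 0.721 and 0.456 FPKM. NM_172390, from the other start, was listed at 0 in EtOH and at 0.206 FPKM in R5020. NFATC2 (chr20:50007765-50179168, minus strand), the main NFAT of resting T cells, passed the filter only just, at 1.003 FPKM in EtOH and 1.103 FPKM in R5020. NM_001136021 was at 0.755 and 0.555 FPKM and NM_173091 at 0.248 and 0.548 FPKM, and for both the intervals overlapped. Summed, NFATC1, NFATC2 and NFATC3 were at 7.18 FPKM in EtOH and 5.80 FPKM in R5020.

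**Figure D3:**
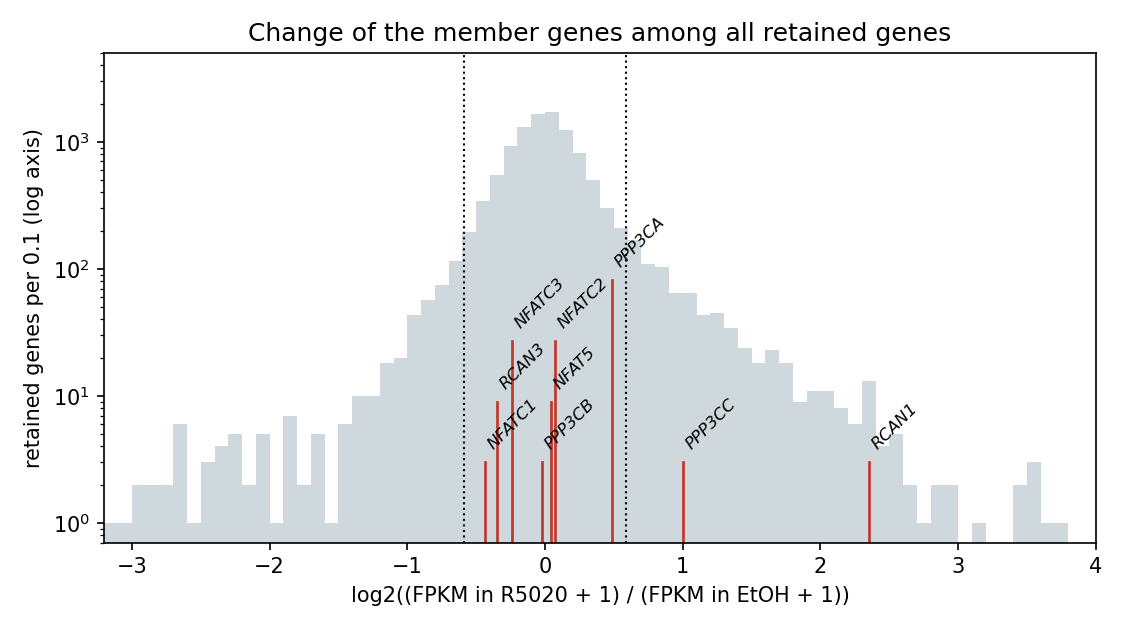
Histogram of the change, log2((FPKM in R5020 + 1) / (FPKM in EtOH + 1)), of the 11018 retained genes on a logarithmic count axis, with red lines at the 9 retained genes of the pathway and dotted lines at 1.5-fold. The heights of the red lines only keep the names apart, and genes beyond the ends of the axis are not drawn. RCAN1 at 2.35 and PPP3CC at 1.003 lie beyond the upper dotted line and none lies beyond the lower.

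The 10 genes have 42 transcripts, with 21 listed at 0 in both conditions and 15 retained. Among the retained ones, 5 reached 1.5-fold towards R5020 and 1 towards EtOH, against 11.3% and 8.34% of all retained transcripts. The lower one was NM_001251982 of RCAN3, and the higher ones were NM_203418 of RCAN1, NM_001130692 of PPP3CA, NM_001243975 and NM_005605 of PPP3CC, and NM_173214 of NFAT5. Among the 15, 7 were higher and 4 lower with intervals apart. The share of all retained transcripts with intervals apart was not computed, so nothing is read from this count.

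The rest of the pathway was read from 5 lists with 56 genes, of which 40 were retained. In these, 6 genes were at least 1.5-fold higher and 1 was at least 1.5-fold lower, with a median change of -0.04. The shares over all retained genes, against which this count and those of the single lists are to be read, were 7.67% higher and 4.14% lower, with a median change of 0.0053. The partners of calcineurin numbered 8 retained of 10, and none reached 1.5-fold. The highest of them was PPIA, the cyclophilin through which cyclosporin A acts, at 160 FPKM in EtOH and 156 FPKM in R5020. The calcium-binding regulatory subunit PPP3R1 was at 9.77 and 11.0 FPKM, and the testis form PPP3R2 was listed at 0 in both.

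All 11 NFAT partners and kinases were retained, 2 of them were higher, against 7.67% of all retained genes, and the median change was 0.0015. CSNK1A1, casein kinase 1 alpha, which returns phosphates to NFAT and so favours its export, was at 50.7 FPKM in EtOH and 89.6 FPKM in R5020, a change of 0.81. HOMER2, a scaffold that competes with calcineurin for NFAT, was at 3.62 and 9.29 FPKM, a change of 1.16. The other kinases of this list, DYRK1A, DYRK2, GSK3A, GSK3B, CSNK1D and CSNK1E, did not reach 1.5-fold. NFATC4, the calcineurin-regulated NFAT that is not among the 10 genes, was at 1.32 and 0.616 FPKM.

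All 16 genes of calcium stores and entry were retained, with 1 higher, against 7.67% of all retained genes, none lower, against 4.14%, and a median change of -0.15. PLCG1, the phospholipase that makes the signal for calcium release, was at 6.90 FPKM in EtOH and 12.5 FPKM in R5020, a change of 0.77. PLCG1 was under 1.5-fold by its highest transcript alone and under 2-fold by the sum. Of the 16 changes 10 were below 0, each under 1.5-fold, in a set that holds the store sensors STIM1 and STIM2 and the channels ORAI1, ORAI2 and ORAI3. The median change over all retained genes was 0.0053, near 0, and nothing is read from this count of directions.

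None of the 11 known NFAT target genes of immune and tumour cells was retained. The highest was LCN2, a secreted siderophore-binding protein, at 0.409 FPKM in EtOH and 0.285 FPKM in R5020, and PTGS2, CSF2, FASLG, ENPP2, EGR2 and EGR3 were listed at 0 in both. RCAN1, itself a known NFAT target, was not in that list.

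Of the 8 known targets of NFAT5, 5 were retained, 3 were higher and 1 lower, with a median change of 1.09, against 7.67% higher and 4.14% lower over all retained genes. These are few genes, chosen with results of these data known, and nothing is read from the count. SLC6A6, the taurine transporter, was at 8.15 FPKM in EtOH and 18.5 FPKM in R5020, a change of 1.09. SLC38A2, a transporter of small neutral amino acids, was at 29.9 and 70.5 FPKM, a change of 1.21. SGK1, a kinase that is also a known target of steroid receptors, was at 0.0388 and 3.28 FPKM, a change of 2.04. HSPA1B, a heat shock protein, was lower at 12.3 and 4.93 FPKM, a change of -1.17. It has a near-identical copy, HSPA1A, and is listed on 5 sequences of the assembly, so its value is uncertain.

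PR binding sites were read from 11181 sites with a score of 10 times the negative log10 of the p-value, from 50 to 1965.17 with a median of 74.5. Of the 10 genes, 6 had a site within 50 kb of a transcript, against 52.7% of all retained genes and 51.0% of those that extend over 30 kb or more, as all 10 genes do. They were RCAN1, PPP3CB, PPP3CC, NFATC2, NFATC3 and NFAT5, all retained, with 17 sites in all. Only 5 of these sites lay inside a gene of the 10, in RCAN1, NFATC2 and NFATC3. The genes without a site were RCAN2, RCAN3, PPP3CA and NFATC1, whose nearest sites lay 555.8, 60.1, 1457 and 210.8 kb away. Both genes that were 1.5-fold higher had a site, as did 4 of the 7 that were not. The share with a site among all genes that were 1.5-fold higher was not computed, so nothing is read from this contrast.

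**Figure D4:**
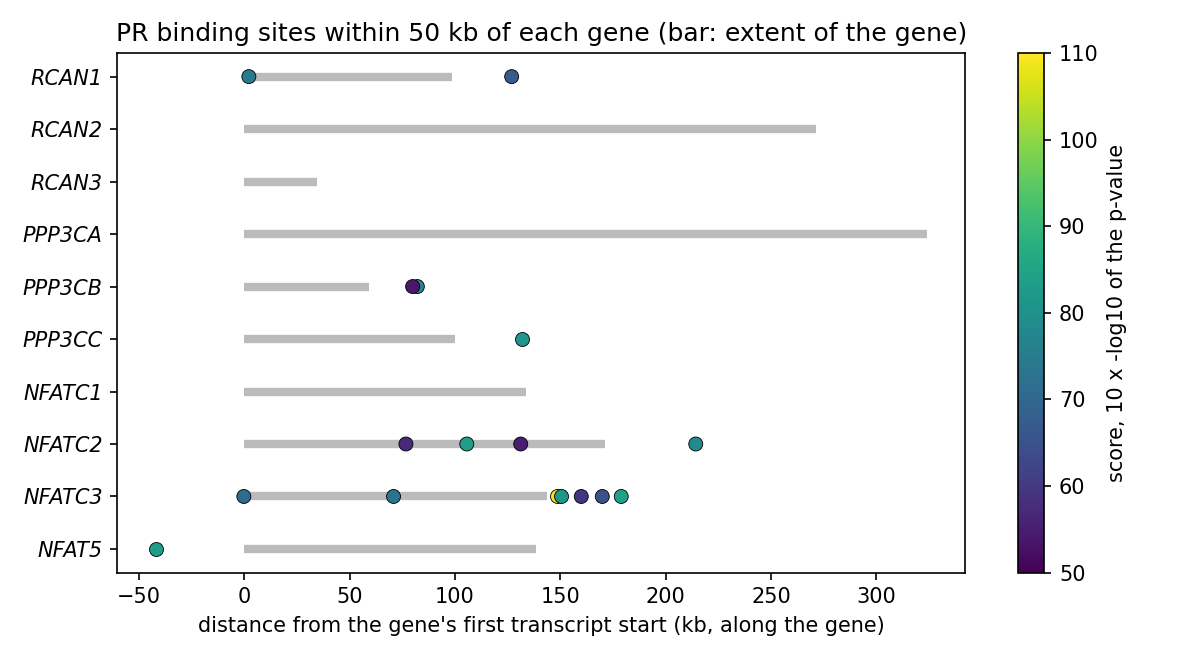
PR binding sites within 50 kb of each gene, at their distance in kb from the first transcript start along the direction of transcription, with a bar for the extent of the gene and the colour giving the score, 10 times the negative log10 of the p-value. NFATC3 has 7 sites, NFATC2 has 4, RCAN1 and PPP3CB have 2 and the genes RCAN2, RCAN3, PPP3CA and NFATC1 have none.

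The density of sites differed between the chromosomes of these genes. NFATC2, with 4 sites, lies on chromosome 20, with 9.71 sites per Mb, and NFATC3, with 7 sites, on chromosome 16, with 7.78 sites per Mb, against 3.68 sites per Mb over all chromosomes. NFAT5 lies on the same chromosome as NFATC3 and had 1 site. PPP3CC had 1 site at 4.71 sites per Mb on chromosome 8, PPP3CB had 2 at 4.19 on chromosome 10 and RCAN1 had 2 at 3.14 on chromosome 21. The genes without a site lie on chromosomes 6, 1, 4 and 18, with 1.58, 3.49, 1.13 and 0.948 sites per Mb. The part of this density in the counts was not tested.

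RCAN1 had 2 sites of middling score. The site at chr21:35985017-35985358, with a score of 74.5 at percentile 48.7 of all sites, lies in an intron of RCAN1. It is 2.19 kb and 1.56 kb downstream of the starts of the long transcripts NM_004414 and NM_203417, which were listed at 0, and 85.9 kb upstream of the start of NM_203418. The site at chr21:35860211-35860672, with a score of 67.04 at percentile 34.2, lies in an intron of KCNE1, a potassium channel subunit, 28.1 kb past the end of RCAN1. It is 38.8 kb downstream of the start of NM_203418, the nearer of the sites to the transcript that held all of the FPKM. Neither site overlaps the 300 bases printed above.

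**Figure D5:**
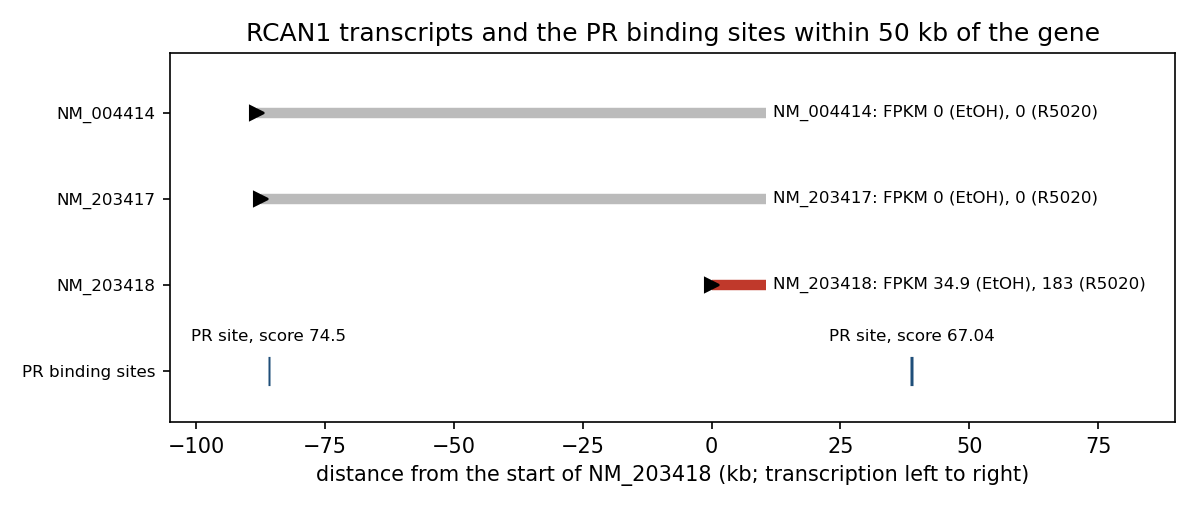
Map of the RCAN1 transcripts and PR binding sites, in kb from the start of NM_203418 with transcription from left to right, with arrowheads at the starts and the FPKM of each transcript in EtOH and R5020. A site lies close to the starts of the long transcripts, which were listed at 0, and the other 38.8 kb downstream of the start of NM_203418.

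The PR binds DNA as a dimer, at 2 inverted copies of the half-site AGAACA spaced by 3 bases. The central 300 bases of both RCAN1 sites are printed from the plus strand of GRCh37 to show how close they come, with the stretch that matches best in capitals.

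Site in KCNE1, chr21:35860292-35860591: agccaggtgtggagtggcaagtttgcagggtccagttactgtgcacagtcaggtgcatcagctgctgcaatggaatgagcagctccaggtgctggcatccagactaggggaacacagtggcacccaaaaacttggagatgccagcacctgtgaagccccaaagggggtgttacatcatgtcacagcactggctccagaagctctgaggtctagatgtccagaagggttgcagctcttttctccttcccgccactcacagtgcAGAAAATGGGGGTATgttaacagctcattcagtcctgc

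Site in RCAN1, chr21:35985038-35985337: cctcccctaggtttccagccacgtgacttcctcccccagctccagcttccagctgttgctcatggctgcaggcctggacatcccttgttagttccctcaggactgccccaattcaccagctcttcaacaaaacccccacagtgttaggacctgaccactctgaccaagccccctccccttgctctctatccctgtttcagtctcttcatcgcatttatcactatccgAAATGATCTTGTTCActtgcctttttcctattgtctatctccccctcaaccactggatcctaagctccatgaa

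In both sites the best stretch matched 8 of the 12 scored positions, which is also the median over all sites. The site in KCNE1 holds 1 ACANNNTGT and the site in RCAN1 none. Neither holds an intact half-site, AGAACA or its reverse complement TGTTCT.

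Among the other 15 sites the best matched 9 of 12 positions, 1 more than the RCAN1 sites, at a site beyond the end of NFATC2 and at the highest scoring site near NFATC3, which lies in ESRP2. Their best stretches, again in capitals on the plus strand, show which letters are kept.

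NFATC2 site, chr20:49964599-49964627: aagttggAGAATACGAAGCTCTctcctta

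NFATC3 site, chr16:68267766-68267794: atgtcggGGAGCACCAGGTTCTgggggca

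Of the 17 sites, 3 held ACANNNTGT, which is 17.6%, with a Wilson 95% interval of 6.19% to 41.0% that covers counting error only. Over all sites of the assembled chromosomes it was 11.6%, which lies within that interval. The interval treats the 17 sites as independent, though 7 lie near NFATC3 and 4 near NFATC2, so nothing is read from this comparison. A half-site was held by 2 of the 17, or 11.8%, against 25.2% of all sites. None of the 17 matched 10 or more of the 12 positions, against 3.53% of all sites. The median score of the 17 was 74.5, the same as that of all sites.

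Among the other sites, NFATC3 had 1 at chr16:68118914-68119256, with a score of 70.45, that ends 0.012 kb before its RefSeq start, and 1 inside an intron at chr16:68189875-68190404, with a score of 73.05. The other 5 NFATC3 sites lie beyond its end, 4.55 to 34.8 kb away, in or near ESRP2 and PLA2G15, and include the highest score of the 17, 108.62 at chr16:68267709-68268225. NFATC2 had 3 sites in its introns, with scores of 54.99, 83.61 and 56.8, and 1 that lies 42.7 kb past its end with a score of 78.29. Most of the 17 sites were thus within 50 kb of these NFAT genes, but only 3 lay inside NFATC2 and 1 inside NFATC3. Neither gene reached 1.5-fold. PPP3CB had 2 sites 20.5 and 22.8 kb past its end, with scores of 53.87 and 77.28, the latter in an intron of ANXA7. PPP3CC, which was 2.53-fold higher, had 1 site 31.6 kb past its end, in an intron of SORBS3, with a score of 81.39. NFAT5 had 1 site 41.7 kb before its start with a score of 83.08.

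Of the 40 retained genes in the 5 pathway lists, 28 had a site within 50 kb, against 52.7% of all retained genes and 51.0% of those that extend over 30 kb or more, among them 15 of the 16 genes of calcium stores and entry and 4 of the 8 retained partners of calcineurin. CSNK1A1 had 6 sites, SLC6A6 10, PLCG1 3, SLC38A2 2 and HOMER2 1, while SGK1 and HSPA1B had none. The most sites were near PLCB3 and CSNK1D, with 12 and 11, and both were under 1.5-fold.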

How the data were processed

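T47D cells were measured by RNA-seq (R5020 and EtOH, 1 library each) and PR ChIP-seq (1 library). Input DNA was not analysed here and enters only as the control of the authors. For RNA-seq the authors used TopHat to place 50-nt paired-end reads on hg19, left out those with more than 1 position, and ran Cufflinks. They deposited FPKM per RefSeq transcript with an interval and status. The deposited coverage, a mean read depth, was turned into reads as coverage times length over 50 nt. The methods name an Ensembl annotation, while the deposited identifiers are RefSeq. For ChIP-seq the authors used Bowtie 1.1.2 and MACS, with as many reads of input DNA as the control. The deposited score is the negative log10 of the p-value times 10, and starts of sites were taken as counted from 0. FPKM holds no read counts, so no count test was run.

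The files were joined by transcript, and transcripts were summed per gene symbol. The pseudocount was 1, the filter an FPKM of 1 in at least 1 condition and the threshold 1.5-fold. A site was tied to a gene within 50 kb of any of its transcripts. Site midpoints were annotated with GENCODE release 44 (protein-coding genes, mapped to GRCh37), and sequences were read from GRCh37. Motifs were searched on both strands. ACANNNTGT and the inverted repeat read the same on both strands, and the repeat can contain a half-site and ACANNNTGT. Upstream windows of 300 bases were taken at each transcript start.

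The 10 genes, the lists and the alternatives were chosen with earlier results of these data known. The text names the 10 genes with their transcripts above 0 and sites, list genes of at least 1.5-fold, the highest gene of a list with none, and the 3 genes nearest to RCAN1 in change. Other list genes were named after their values were seen. With 1 library per condition there is no spread between cultures, and every difference compares libraries. Alternatives were another or no pseudocount, a median rescaling, the highest transcript, 2-fold, an FPKM of 2 or no filter, other distances, a score of at least 100 and the central 200 bases of sites. The scripts were tested on simulated data. Python 3.11.15, pandas 2.3.3, numpy 2.4.6, pysam 0.24.0 and matplotlib 3.10.9 were used.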

Additional observations from a re-analysis of the deposited data

How the results depend on the processing

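No paired analysis was possible because there was 1 library per condition and no result comes from a test. RCAN1 and PPP3CC were called higher under all 7 alternatives to the pseudocount, scaling, filter, threshold and transcript sum. Not all of these could alter the values. The filters leave the changes of both genes as they are, and the highest transcript of RCAN1 is its only 1 above 0. PPP3CC passed the 2-fold threshold narrowly, at a change of 1.003, and its change after rescaling was 0.993. With a pseudocount of 0.1 and with none, 1 of the 10 genes was at least 1.5-fold lower, NFATC1, at -0.91 with none, and 3 genes of the lists were lower in place of 1, namely NFATC4, ORAI1 and HSPA1B, while the higher ones numbered 7 in place of 6, with SLC5A3 added. Over all retained genes these settings gave 1092 higher and 787 lower with 0.1, and 1068 and 773 with none, against 845 and 456. The share of lower calls moves with the pseudocount because it damps low genes. With 2-fold there were 378 higher and 144 lower genes, and 4 higher genes of the lists, without CSNK1A1 and PLCG1. With only the highest transcript of each gene the change of RCAN3 turned to 0.37 and that of PPP3CA was 0.30, and the lists had 5 higher genes, without PLCG1. Of the 10 genes 3 had a site within 10 kb, RCAN1, NFATC2 and NFATC3, against 33.0% of retained genes, and 7 within 100 kb, against 64.3%. With sites of a score of 100 or more only NFATC3, 1 gene, had a site, against 18.1%. In the central 200 bases 5.88% of the 17 sites held ACANNNTGT, against 5.81% of all sites. In all, 37 values were labelled as moved and 152 as stayed. A count was labelled as stayed if it lay within 1.5-fold of the main count. A change was labelled as stayed if it lay within the ends of its intervals. Some values could not move, such as those of RCAN2, listed at 0, so the tally does not measure how robust the results are. Depth limits NFATC1, NFATC2 and PPP3CC most.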
